A study of Homo sapiens with 9 samples.

Results

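The 10 genes described here are transcripts that respond to signalling through the kinase ERK: the MAP kinase phosphatase genes DUSP4, DUSP5 and DUSP6, the inhibitor genes SPRY2, SPRY4 and SPRED1, the ETS-family transcription factor genes ETV4 and ETV5, and the output genes PHLDA1 and FOSL1. They were chosen by name, with earlier results of these data known, and are 10 of the 60642 gene names in the count table. All 10 were among the 18574 genes with enough counts to be tested. None of them passed the threshold for differentially expressed genes (DEGs) when EMX1-FL or EMX1-X1 was overexpressed, and they did not move in 1 direction. SPRY2 was lower in both overexpression groups, PHLDA1 was higher with EMX1-FL and DUSP4 was higher with EMX1-X1, each at an unadjusted p under 0.05 only.

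RNA-seq was performed on SNU-398, a mesenchymal-like hepatocellular carcinoma (HCC) cell line, in 3 groups of 3 libraries. The first group was a vector control, whose genotype is labelled wild type, and the others were lentivirally transduced to overexpress EMX1-FL, the full-length form of the homeobox transcription factor EMX1, or EMX1-X1, a splice form with another terminal exon. All 3 groups shared the puromycin selection and the culture medium, RPMI1640 with fetal bovine serum, and the promoter of the vector and whether a line was 1 clone or a pool are not given in the sources used here. Nothing in the labels says that the libraries of a group came from separate cultures, so the p-values measure the spread between these libraries, which may be technical.

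ERK is the last kinase of a relay that runs from receptor tyrosine kinases such as EGFR through RAS, RAF and MEK. Active ERK switches on transcription factors, and among the genes they induce are inhibitors of the relay itself: DUSP phosphatases remove the activating phosphates from MAP kinases, and Sprouty and SPRED proteins act at the level of RAS and RAF. For this reason the transcripts of such genes are often measured together as a readout of ERK output, although each also answers to other inputs.

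The libraries held between 21562703 and 25197970 counted read pairs. EMX1 checked the labels: it had 218 to 313 counts in the vector control, 3145 to 5660 in EMX1-FL and 3479 to 7133 in EMX1-X1, and the gene-level counts do not tell the 2 forms apart. After group means were removed, the first principal component (46.6% of the remaining variance) split the libraries into a cluster A of 5 (vector control 1 and 2, EMX1-X1 1, EMX1-FL 2 and 3) and a cluster B of 4 (vector control 3, EMX1-X1 2 and 3, EMX1-FL 1), with EMX1-FL 1 the farthest out. EMX1 itself moved with this split: it was 0.78 higher on the log2 scale in cluster B than in A with the group in the model, more than 87.7% of the genes tested, with 5660 counts in EMX1-FL 1 beside 3202 and 3145 in the other EMX1-FL libraries, and 7083 and 7133 in EMX1-X1 2 and 3 beside 3479 in EMX1-X1 1. Its part in the results below was not tested. The labels give no batch that matches this split, and its cause was not tested. Mitochondrial genes took 6.96% to 8.18% of the counts in the vector control, 3.84% to 6.67% in EMX1-FL and 4.31% to 5.97% in EMX1-X1, so this share was highest in the control, and its part in the results below was not tested. The mesenchymal markers summed to between 1161 and 1840 counts per 1000000 (CPM). VIM ran from 979 to 1553 CPM over the libraries, FN1 and CDH2 stayed above 10 CPM, and ZEB1 lay near 1 CPM, between 0.536 and 2.95, whereas 6 of the 7 hepatocyte and hepatoblast markers stayed under 1 CPM, AFP and TTR at 0. The summed hepatocyte list was 0.524 to 0.948 CPM in the vector control, 1.69 to 2.68 CPM in EMX1-FL and 1.08 to 2.06 CPM in EMX1-X1, and whether this bears on the members was not tested. Most of this sum was ALB, the 1 gene of the list with enough counts to be tested, at means of 0.607, 1.69 and 1.32 CPM in the same order. TF averaged 0.112, 0.0569 and 0.123 CPM. Epithelial markers summed to 4.41 to 6.47 CPM, 5.63 to 8.22 CPM and 5.70 to 8.84 CPM in the same order, with KRT18 at 0, and all 3 blood and all 3 endothelial markers stayed under 1 CPM.

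Promoter sequence from RefSeq, on GRCh38.p14, was at hand for 5 of the 10 members. The windows of DUSP6 and SPRY2 are shown because DUSP6 is the phosphatase most closely tied to ERK and SPRY2 was the one member lower in both overexpression groups at an unadjusted p under 0.05. Each is the 250 bases before the start of the gene, on the minus strand, at chr12:89352502-89352751 and chr13:80341127-80341376.

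DUSP6: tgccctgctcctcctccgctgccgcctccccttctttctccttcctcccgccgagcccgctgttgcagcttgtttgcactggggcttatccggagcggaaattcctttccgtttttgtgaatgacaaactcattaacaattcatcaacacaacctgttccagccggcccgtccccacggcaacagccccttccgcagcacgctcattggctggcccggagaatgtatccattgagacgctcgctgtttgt

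SPRY2: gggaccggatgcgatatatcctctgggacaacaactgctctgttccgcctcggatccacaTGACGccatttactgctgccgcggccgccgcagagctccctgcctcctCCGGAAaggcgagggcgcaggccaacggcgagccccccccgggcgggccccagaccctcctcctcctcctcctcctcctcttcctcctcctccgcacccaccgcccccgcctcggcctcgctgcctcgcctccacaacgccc

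The capitals in the SPRY2 window mark TGACG, part of the site of CREB-type factors, at -190 to -186, and CCGGAA, a form of the site bound by ETS factors, at -142 to -137 from the start. Of 35116 windows of the same length, 21.2% held TGACG and 14.5% held CCGGAA on either strand, and the 2 matches in SPRY2 do not overlap. The DUSP6 window held neither of these strings, and neither window held TGANTCA, the AP-1 site (6.57% of windows), or TAATTA, a form of homeodomain site (4.35% of windows). Only these letters were searched for. Other forms of the sites were not counted, such as GGAA alone, which the DUSP6 window holds. SPRY2 also has windows before other RefSeq starts, at chr13:80340109-80340358 and chr13:80339660-80339909, and these held none of the motifs. A match is a description of the letters and not of binding. All 250 bases of the DUSP6 window lie in exons of another annotated gene, and the windows of SPRY4 and PHLDA1 lie in part or in whole in exons of their own gene and are not shown. The SPRY4 window held TGACG, the PHLDA1 window held CCGGAA on the opposite strand, and the SPRED1 window, also not shown, held none of the motifs.

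In the vector control the members spanned a wide range of levels. Per length of transcript, in transcripts per 1000000 (TPM, mean ± SD, n = 3), SPRY2 was highest at 230.3 ± 12.6, followed by SPRED1 at 167 ± 28.7, DUSP6 at 49.7 ± 1.37, ETV5 at 39.8 ± 4.62, ETV4 at 35.0 ± 2.86 and SPRY4 at 28.8 ± 0.952. FOSL1 at 7.15 ± 0.469, PHLDA1 at 6.03 ± 0.445, DUSP5 at 5.01 ± 0.334 and DUSP4 at 3.76 ± 0.228 TPM were the lowest. Neighbours in this order did not overlap between control libraries except ETV5 (36.2 to 45.0 TPM) and ETV4 (32.2 to 37.9 TPM). With EMX1-FL the top of the order was no longer separated, at 171 ± 21.1 TPM for SPRY2 and 196 ± 56.7 TPM for SPRED1. The shallowest members were DUSP5, with 57 to 125 read pairs per library, and FOSL1, with 70 to 126.

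**Figure D1:**
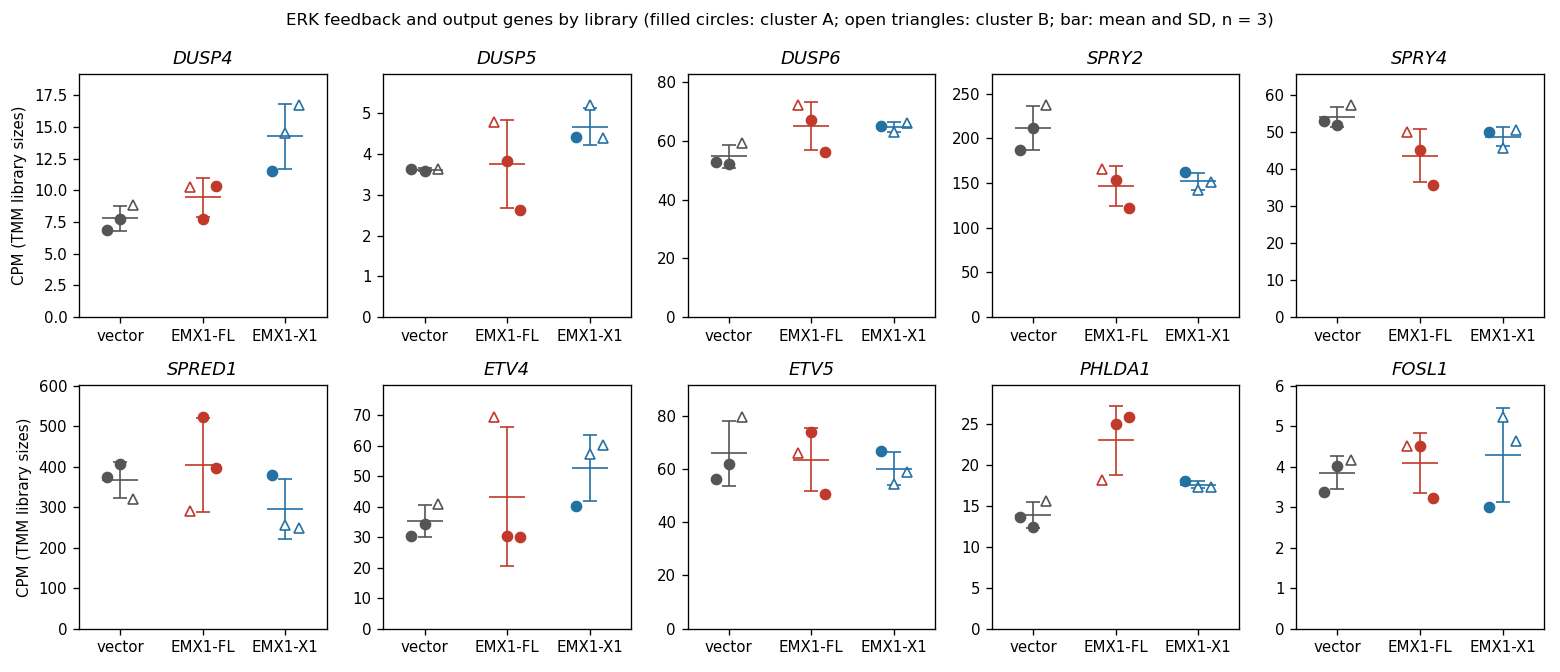
Level of each of the 10 members in every library, in CPM on a linear axis from 0, by group, with the mean and SD of 3 libraries as bars, filled circles for cluster A and open triangles for cluster B. SPRY2 lies between 187 and 237 CPM in the control and between 122 and 165 CPM in both overexpression groups together, while within each group ETV4 is highest and SPRED1 lowest in cluster B.

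The dual-specificity phosphatases come first. DUSP6, a cytoplasmic phosphatase selective for ERK (chromosome 12, 89347235 to 89352501, minus strand), had 52.8, 52.1 and 59.2 CPM in the 3 vector control libraries, 72.1, 67.1 and 56.2 CPM with EMX1-FL, and 65.0, 62.9 and 66.2 CPM with EMX1-X1, CPM being taken on TMM-normalized library sizes. The EMX1-X1 libraries all lay above the control and EMX1-FL 3 lay among the control values. In bulk RNA, a change in the share of cells that express a gene and a change in the amount per cell cannot be told apart. The log2 fold change was 0.25 with EMX1-FL (95% interval -0.10 to 0.61, adjusted p = 0.997, edgeR) and 0.24 with EMX1-X1 (-0.11 to 0.60, adjusted p = 0.687, edgeR). Between EMX1-FL and EMX1-X1 the log2 difference was 0.0093 (-0.34 to 0.36). Exons of AC024909.1 share 28.6% of the DUSP6 exon bases, and since the header of the count table shows no strand setting, reads of the pair there cannot be told apart.

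DUSP4, a nuclear phosphatase of ERK and other MAP kinases (chromosome 8), had 6.89, 7.72 and 8.86 CPM in the vector control, 10.3, 7.71 and 10.3 CPM with EMX1-FL, and 11.6, 14.5 and 16.7 CPM with EMX1-X1. Every EMX1-X1 library was above every library of the other groups, and EMX1-FL overlapped the control. DUSP4 was 1.82-fold higher with EMX1-X1 than in the control (log2 0.87, SE 0.22, edgeR p = 0.00179, adjusted p = 0.397, exact permutation p = 0.1), which is below the fold change threshold of DEGs. With EMX1-FL the log2 fold change was 0.27 (SE 0.22, 95% interval -0.20 to 0.74). The direct comparison put EMX1-FL below EMX1-X1 by -0.60 (SE 0.21, edgeR p = 0.0171, adjusted p = 0.611, exact permutation p = 0.1). Taken within clusters, EMX1-X1 minus control was 0.66 log2 CPM in A and 0.81 in B, the first resting on 1 EMX1-X1 library and the second on 1 control library. Its gap from EMX1-FL to EMX1-X1 no longer passed an unadjusted p under 0.05 without EMX1-FL 2 or without EMX1-X1 3 (-0.47 in both).

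DUSP5, a nuclear phosphatase that binds ERK (chromosome 10), had 3.64, 3.58 and 3.63 CPM in the vector control, 4.79, 3.83 and 2.63 CPM with EMX1-FL, and 4.41, 5.20 and 4.40 CPM with EMX1-X1. The control libraries were tight, EMX1-FL spread to both sides of them, and EMX1-X1 lay above them. The log2 fold changes were 0.055 (-0.50 to 0.61) with EMX1-FL and 0.37 (-0.18 to 0.92) with EMX1-X1. Without EMX1-FL 1 the first became -0.16.

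Of the inhibitors, SPRY2, which blocks RAS activation downstream of growth factor receptors (chromosome 13, 80335976 to 80341126, minus strand), had 187, 211 and 237 CPM in the vector control, 165, 153 and 122 CPM with EMX1-FL, and 162, 142 and 151 CPM with EMX1-X1. All 6 overexpression libraries were below all 3 control libraries. SPRY2 was 1.44-fold lower with EMX1-FL (log2 -0.53, SE 0.17, edgeR p = 0.0088, adjusted p = 0.524, exact permutation p = 0.1) and 1.39-fold lower with EMX1-X1 (log2 -0.48, SE 0.17, p = 0.0147, adjusted p = 0.549, exact permutation p = 0.1). Both comparisons use the same control libraries. The overexpression groups differed by -0.047 (-0.41 to 0.32). EMX1-FL minus control was -0.54 in cluster A and -0.52 in B, and EMX1-X1 minus control was -0.30 in A and -0.69 in B, with 1 library on at least 1 side in each but the first. With the cluster as a covariate, the adjusted p of SPRY2 in EMX1-FL was 0.0464, the lowest of its 19 alternatives, which ran up to 1, and its log2 fold change stayed between -0.62 and -0.41. The clusters were defined from the residual spread of these same libraries, so p-values adjusted for them can be too small. With EMX1-X1, SPRY2 no longer passed an unadjusted p under 0.05 without EMX1-X1 2 (log2 -0.43).

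SPRY4, a Sprouty protein that acts on the same step (chromosome 5), had 52.9, 51.8 and 57.1 CPM in the vector control, 49.9, 45.0 and 35.7 CPM with EMX1-FL, and 49.8, 45.6 and 50.4 CPM with EMX1-X1. Its groups were ordered like those of SPRY2, with both overexpression groups below the control, but the gap was small. The log2 fold changes were -0.31 (-0.69 to 0.070) with EMX1-FL and -0.15 (-0.53 to 0.23) with EMX1-X1, at adjusted p = 0.981 and 0.805 in edgeR. On the TPM scale the EMX1-X1 libraries (26.5 to 28.6) overlapped the control (28.2 to 29.9).

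SPRED1, which recruits the RAS inactivator neurofibromin to the membrane (chromosome 15), had 375, 407 and 319 CPM in the vector control, 291, 523 and 398 CPM with EMX1-FL, and 380.4, 256 and 247 CPM with EMX1-X1. Within each group the highest libraries were those of cluster A and the lowest those of cluster B, and all groups overlapped. Cluster B minus cluster A, with the group in the model, was -0.51 on the log2 scale, a larger difference than in 64% of the genes tested. The log2 fold changes were 0.14 (-0.37 to 0.65) with EMX1-FL and -0.32 (-0.83 to 0.19) with EMX1-X1, and the former was -0.11 without EMX1-FL 2. EMX1-FL exceeded EMX1-X1 by 0.45 (-0.056 to 0.96), a difference that passed an unadjusted p under 0.05 without EMX1-FL 1 (0.64) and without EMX1-X1 1 (0.68).

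ETV4 and ETV5 encode closely related ETS transcription factors that ERK signalling induces and activates. ETV4 (chromosome 17) had 30.4, 34.4 and 40.8 CPM in the vector control, 69.4, 30.2 and 30.2 CPM with EMX1-FL, and 40.2, 57.4 and 60.0 CPM with EMX1-X1. The 1 high EMX1-FL library was EMX1-FL 1, and the other 2 lay just below all controls. The log2 fold change of 0.30 with EMX1-FL (-0.38 to 0.98) became -0.22 without that library. With EMX1-X1 it was 0.58 (-0.11 to 1.26), and 0.74 without EMX1-X1 1. Without EMX1-FL 1, the log2 difference of EMX1-FL from EMX1-X1 went from -0.28 to -0.80. ETV4 was 0.71 higher in cluster B than in A on the log2 scale, more than 82.7% of the genes tested, and within clusters EMX1-FL minus control was -0.10 in A and 0.76 in B, where each side is 1 library. ETV5 (chromosome 3) had 56.2, 61.9 and 79.7 CPM in the vector control, 65.9, 74.1 and 50.7 CPM with EMX1-FL, and 66.8, 54.4 and 59.0 CPM with EMX1-X1. Its 3 groups overlapped, with log2 fold changes of -0.053 (-0.49 to 0.38) and -0.13 (-0.57 to 0.30).

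PHLDA1, a pleckstrin homology-like protein induced by growth factors (chromosome 12), had 13.6, 12.5 and 15.6 CPM in the vector control, 18.1, 25.0 and 25.9 CPM with EMX1-FL, and 18.1, 17.3 and 17.3 CPM with EMX1-X1. All 6 overexpression libraries were above the control, and the lowest EMX1-FL library and the highest EMX1-X1 library nearly met. PHLDA1 was 1.65-fold higher with EMX1-FL (log2 0.73, SE 0.19, edgeR p = 0.00273, adjusted p = 0.294, exact permutation p = 0.1). With EMX1-X1 the log2 fold change was 0.34 (-0.081 to 0.76), and EMX1-FL exceeded EMX1-X1 by 0.39 (-0.029 to 0.81). Within clusters, EMX1-FL minus control was 0.96 in A, with 2 libraries a side, and 0.22 in B, with 1 a side. Its adjusted p for EMX1-FL was 0.0342 with the cluster as a covariate and 0.0433 without EMX1-FL 1, in a range up to 1.00 over 19 alternatives. The value with the cluster can be too small, as the clusters came from these same libraries. Exons of AC011611.3 and AC011611.4 share 16.5% of its exon bases.

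FOSL1, the AP-1 subunit FRA1, whose transcript and protein both depend on ERK (chromosome 11), had 3.38, 4.01 and 4.16 CPM in the vector control, 4.52, 4.51 and 3.23 CPM with EMX1-FL, and 3.00, 5.24 and 4.64 CPM with EMX1-X1. The groups overlapped. The log2 fold changes were 0.086 (-0.50 to 0.67) and 0.16 (-0.42 to 0.74).

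Counted together, 0 of 10 members were DEGs (a fold change of at least 1 on the log2 scale in either direction, with an unadjusted p under 0.05) in any of the 3 comparisons with edgeR, DESeq2 or limma, against 2.42% of all genes tested with EMX1-FL, 2.5% with EMX1-X1 and 1.42% between the overexpression groups. At an unadjusted p under 0.05 alone, 2 members passed with EMX1-FL (PHLDA1 higher, SPRY2 lower), where 5.8% of genes did. With EMX1-X1 also 2 passed (DUSP4 higher, SPRY2 lower), beside 8.11% of genes, and 1 passed between EMX1-FL and EMX1-X1 (DUSP4), beside 7.63% of genes. No member passed an adjusted p under 0.05, the lowest being 0.294, 0.397 and 0.611. DESeq2 found the same 2, 2 and 1 members at an unadjusted p under 0.05, and limma on log2(TPM + 1) added DUSP6 with either form of EMX1. There its log2 fold changes were 0.338 and 0.340. On that scale fold changes over the genes tested shifted up by a median of 0.069 with EMX1-FL and 0.093 with EMX1-X1. The part of this shift in the DUSP6 result was not tested.

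Libraries of the groups compared did not overlap in CPM for 3 members with EMX1-FL (SPRY2, SPRY4 and PHLDA1; 10.5% of all genes), 6 with EMX1-X1 (DUSP4, DUSP5, DUSP6, SPRY2, SPRY4 and PHLDA1; 14.7%) and 2 between the overexpression groups (DUSP4 and PHLDA1; 8.38%). An exact two-sided permutation test gives p = 0.1 for each of these, the smallest it can give for 3 libraries against 3. The fold change was positive for 7, 6 and 4 of the 10 members, with medians of 0.11, 0.20 and -0.058 on the log2 scale beside 0.045, 0.0098 and 0.021 over all genes tested.

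EGFR, the receptor upstream of the relay, was the 1 cascade gene that passed the DEG threshold with EMX1-FL. It had 13.4, 15.5 and 15.5 CPM in the vector control, 33.0, 34.0 and 25.3 CPM with EMX1-FL, and 22.8, 22.2 and 20.8 CPM with EMX1-X1. The 3 groups did not overlap, and the order was EMX1-FL, EMX1-X1, control. The log2 fold change was 1.06 with EMX1-FL (SE 0.18, adjusted p = 0.0627, edgeR) and 0.57 with EMX1-X1 (SE 0.18, adjusted p = 0.526, edgeR). EGFR with EMX1-FL kept an unadjusted p under 0.05 in all 19 alternatives, but its log2 fold change ran from 0.96 to 1.18 and the DEG call ended in 3 of them: with limma on log2(TPM + 1), without vector control 1 and without EMX1-FL 2 (0.96). The adjusted p over these alternatives ran from 3.03e-05 to 0.365.

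**Figure D2:**
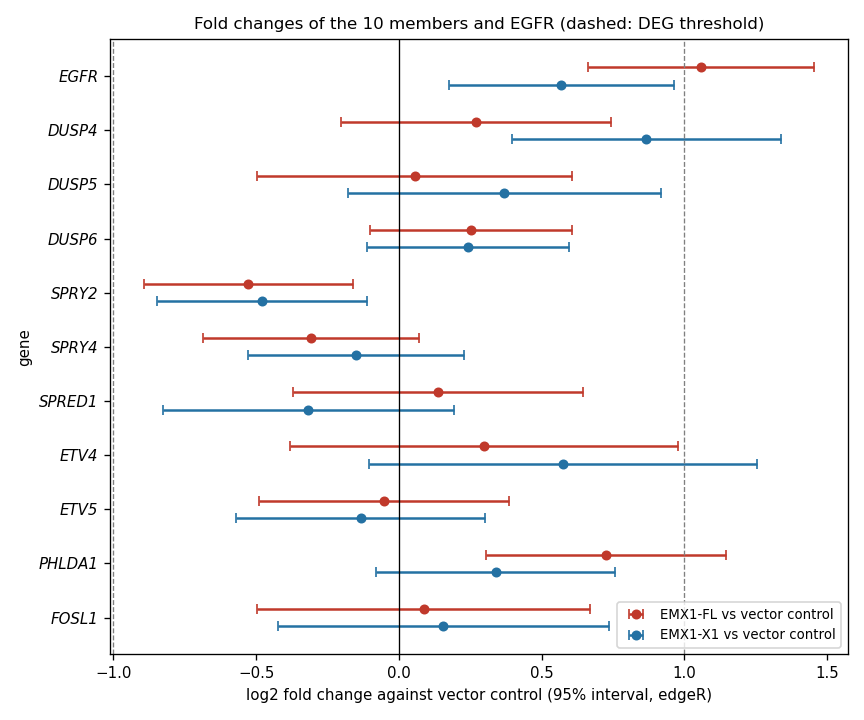
Log2 fold change against the vector control, with its 95% interval from edgeR, of EGFR and the 10 members in EMX1-FL (red) and EMX1-X1 (blue), with dashed lines at the fold change threshold of DEGs. The EGFR point of EMX1-FL lies at 1.06, whereas the members lie between -0.53 (SPRY2) and 0.87 (DUSP4) and most of their intervals cross 0.

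Correlations between members depended on whether the differences between groups were left in. Over the 45 pairs, the median Pearson r of log2 CPM was 0.153, with 11 pairs over 0.5 and 6 under -0.5, all computed on the same 9 libraries and therefore sharing their groups and clusters. SPRY2 and SPRY4 were most alike (r = 0.865), and DUSP5 and ETV4 followed at 0.782. SPRED1 ran opposite to ETV4 (r = -0.863), and PHLDA1 opposite to SPRY4 (r = -0.792). With the group means removed, the median was 0.213, with 16 pairs over 0.5 and 5 under -0.5. Within groups DUSP6 and SPRY4 were then most alike, at r = 0.970 against -0.018 with the groups left in, and DUSP6 and SPRY2 followed at 0.906 against -0.347. ETV5 was also like SPRY2 (r = 0.903) and DUSP6 (r = 0.805), and DUSP5 like DUSP6 (r = 0.774), n = 9 libraries each with the group means removed. Removing the group means leaves 6 residual degrees of freedom, so these r values rest on less than 9 independent values. SPRED1 remained opposite to ETV4 (r = -0.871). Along the component that separates the clusters, r was 0.985 for ETV4 and -0.895 for SPRED1. Of all genes tested, those most like DUSP6 were KRTAP3-1 (r = 0.980), S100A10 (r = 0.954) and GALNT14 (r = 0.947, n = 9 each), of which KRTAP3-1 averaged 0.421 CPM in the control.

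**Figure D3:**
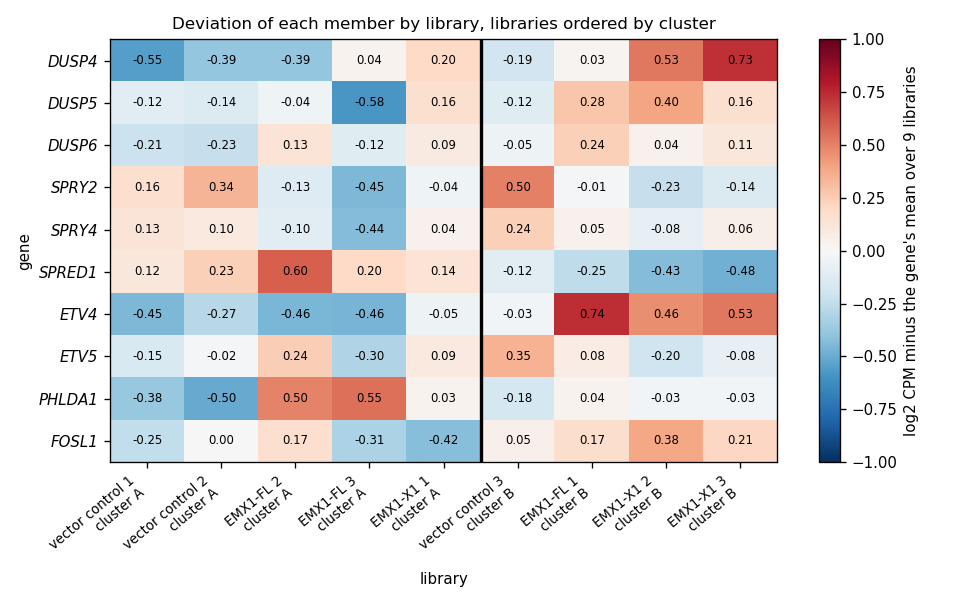
Deviation of each member in each library, as log2 CPM minus the mean of the gene over the 9 libraries, with the 5 libraries of cluster A left of the black line and the 4 of cluster B right of it. ETV4 is at or below its mean in cluster A and reaches 0.74 in EMX1-FL 1, SPRED1 shows the opposite pattern, and SPRY2 is positive only in the 3 control libraries.

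Wider lists of the pathway were read the same way, as counts at an unadjusted p under 0.05. These lists were chosen with earlier results of these data known, so their shares are not independent of the data. Over all genes tested, 5.8% passed with EMX1-FL, 8.11% with EMX1-X1 and 7.63% between the overexpression groups. DEGs were 2.42%, 2.5% and 1.42% of all genes tested in the same order. No gene of these lists passed an adjusted p under 0.05 in edgeR on all 9 libraries. Under other settings some did: 6 with EMX1-FL and 1 with EMX1-X1 in DESeq2, 7 and 1 with the cluster as a covariate in edgeR, and 2 and 5 without a filter. The counts with the cluster can be too high, as the clusters came from these same libraries. Between the overexpression groups 16 passed without EMX1-FL 1. With EMX1-FL the adjusted p of FOS ran from 0.00284 to 0.583 over the 19 alternatives, that of EMP1 from 0.00495 to 0.669 and that of ERRFI1 from 0.00933 to 0.731. Among 8 other Sprouty, SPRED and receptor feedback inhibitors, ERRFI1, which encodes the EGFR inhibitor MIG6, was higher with both forms. It had 243, 272 and 274 CPM in the vector control, 437, 469 and 374 CPM with EMX1-FL and 463, 368 and 372 CPM with EMX1-X1. Neither overexpression group overlapped the control, with log2 fold changes of 0.70 (SE 0.16, adjusted p = 0.189, edgeR) and 0.61 (SE 0.16, adjusted p = 0.433, edgeR). SOCS3, an inhibitor of cytokine receptors, passed the DEG threshold with EMX1-X1 (log2 1.04, SE 0.35), and 0 genes of this list passed in the other direction or between EMX1-FL and EMX1-X1. In all, 12.5% of this list passed an unadjusted p under 0.05 with EMX1-FL and 25% with EMX1-X1. SOCS3 in EMX1-X1 was 37.9 and 33.4 CPM in the libraries of cluster B and 17.2 CPM in that of cluster A, and without EMX1-X1 2 it no longer passed (log2 0.82). The DEG call of SOCS3 also ended without EMX1-X1 3 and with the cluster as a covariate (log2 0.69).

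Of the 7 other MAP kinase phosphatases, 2 were lower with EMX1-FL (DUSP8, log2 -0.48, and DUSP16, log2 -0.33), 0 passed with EMX1-X1, and 2 were lower in EMX1-FL than in EMX1-X1 (DUSP8, log2 -0.82, and DUSP7, log2 -0.44). These were 28.6%, 0% and 28.6% of the list, beside 5.8%, 8.11% and 7.63% of all genes tested. The list was made by gene family, and which MAP kinase each of these phosphatases acts on was not tested. Of the 7 other ETS factors, ETS1 passed the DEG threshold with both EMX1-FL (log2 1.14, SE 0.29) and EMX1-X1 (log2 1.07, SE 0.29). Its CPM was 5.01, 3.01 and 4.49 in the vector control, 6.88, 8.64 and 12.1 with EMX1-FL, and 11.4, 8.02 and 6.99 with EMX1-X1, with no overlap with the control. The DEG call of ETS1 ended in 3 of 19 alternatives in each comparison: with limma on log2(TPM + 1), without vector control 2, and without EMX1-FL 3 (log2 0.89) or EMX1-X1 1 (log2 0.85). ELK1, a factor that ERK phosphorylates, was lower in EMX1-FL than in EMX1-X1 (log2 -0.64, SE 0.24). In each comparison 14.3% of the ETS list passed. The unadjusted p under 0.05 was lost in 8 of 19 alternatives for DUSP8 with EMX1-FL, in 13 of 19 for DUSP16 and in 4 of 19 for ELK1. Between the overexpression groups it was lost in 9 of 19 for DUSP7 and in 0 for DUSP8. The count of 2 phosphatases with EMX1-FL ran from 0 to 3 over the alternatives, and was 0 with limma, with the replicate block and without vector control 1, vector control 3 or EMX1-FL 1.

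Of 24 immediate early genes 23 were tested (EGR4 had at most 12 counts in a library). Of those tested, 17.4% passed with EMX1-FL, 30.4% with EMX1-X1 and 30.4% between the overexpression groups, beside 5.8%, 8.11% and 7.63% of all genes tested. With EMX1-FL 1 was higher (IER3) and 3 were lower, the transcription factor genes FOS, EGR1 and EGR3. EGR1 lost its p in 6 of 19 alternatives, among them limma and the replicate block, and IER3 in 2. FOS was at 12.2, 12.7 and 13.6 CPM in the vector control, 7.01, 7.75 and 6.93 CPM with EMX1-FL, and 8.61, 9.97 and 9.05 CPM with EMX1-X1. The groups did not overlap, and FOS was also lower with EMX1-X1 (log2 -0.83, SE 0.18, and -0.48, SE 0.18). EGR3 passed the DEG threshold with EMX1-FL (log2 -1.19, SE 0.28) at 3.01 to 5.22 CPM in the control and 1.64 to 1.90 CPM with EMX1-FL, a call that ended with limma on log2(TPM + 1) (log2 -0.70) and without vector control 1. With EMX1-X1 6 were higher (FOSL2, JUNB, IER5, KLF2, KLF4 and SRF) and 1 was lower, FOS. JUNB, IER5 and KLF4 passed the DEG threshold, and JUNB was 62.4 and 64.6 CPM in the EMX1-X1 libraries of cluster B and 24.7 CPM in that of cluster A, beside 21.5 to 26.8 CPM in the control. KLF4 lay near the floor, at 0.0873 to 0.247 CPM in the control and 0.444 to 0.582 CPM with EMX1-X1. Its median counts were 4 and 13, so its call rests on few counts. With at least 10 counts asked for in every library, KLF4 was not tested. An unadjusted p under 0.05 was lost in 7 of 19 alternatives for JUNB, 4 of 18 for KLF4 and 1 of 19 for IER5, and the DEG calls ended in 9, 5 and 5. The unadjusted p under 0.05 was also lost in 5 of 19 each for FOSL2 and SRF and in 3 of 19 for KLF2. For FOS with EMX1-X1 it was lost in 3 of 19, with limma on log2(TPM + 1), without a filter and without EMX1-X1 3. Between the overexpression groups 7 were lower in EMX1-FL and 0 higher, KLF2 as a DEG (log2 -1.03, SE 0.27) in 14 of the 19 alternatives. In this comparison the unadjusted p under 0.05 was lost in 8 of 19 for SRF, 7 for IER5 and 4 for ZFP36. For EGR1 and EGR3 it was lost in 1 each, and for JUND and KLF2 in 0. Over the 19 alternatives these counts ran from 2 to 9 with EMX1-FL, from 1 to 9 with EMX1-X1 and from 2 to 13 between the groups.

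Of 12 other delayed outputs 11 were tested (EPHA4 had at most 9 counts in a library). Of those tested, 9.09% passed with EMX1-FL, 36.4% with EMX1-X1 and 0% between the overexpression groups, beside 5.8%, 8.11% and 7.63% of all genes tested. EMP1, a membrane protein induced by growth factors, was higher with both forms, at 10.7 to 11.9 CPM in the vector control, 23.0, 18.9 and 18.0 CPM with EMX1-FL, and 22.8, 18.8 and 19.6 CPM with EMX1-X1. The log2 fold changes were 0.83 (SE 0.18, adjusted p = 0.163, edgeR) and 0.87 (SE 0.18, adjusted p = 0.31, edgeR). UPP1, SPHK1 and PHLDA3 were also higher with EMX1-X1, PHLDA3 as a DEG (log2 1.16, SE 0.44) that lost its p in 3 of 19 alternatives. Whether PHLDA3 or the other genes of this list answer to ERK in these cells was not tested. None of the 11 was lower at an unadjusted p under 0.05 in any comparison. The median over the list was 0.24 with EMX1-FL and 0.68 with EMX1-X1, beside 0.045 and 0.0098 over all genes tested. EMX1-X1 2 and 3 lie in cluster B, as do EMX1-FL 1 and vector control 3. PHLDA3 ran from 3.95 to 11.6 CPM in EMX1-X1 and from 3.17 to 4.54 CPM in the control. The part of the clusters in these medians was not tested. UPP1 lost its p in 7 and SPHK1 in 4 of 19 alternatives. The count of 4 with EMX1-X1 ran from 1 to 8, and was 1 without vector control 1, EMX1-X1 2 or EMX1-X1 3, 2 without vector control 2 and 8 without EMX1-X1 1. EPHA2 had the smallest p between EMX1-FL and EMX1-X1 (log2 -0.43, SE 0.22), which missed the threshold. Of the 22 cascade components, EGFR alone was higher with EMX1-FL and 0 were lower, and with EMX1-X1 EGFR was higher and SOS1, a RAS activator, lower (log2 -0.55). That count of 2 ran from 1 to 5, and SOS1 lost its p in 8 of 19 alternatives, among them limma, the replicate block and leaving out vector control 1 or 2 or EMX1-X1 2 or 3. Between the overexpression groups EGFR and SOS1 were higher in EMX1-FL, and GRB2, ARAF, KSR1, MAP2K2 and CIC were lower, ARAF with the smallest p (log2 -0.65, SE 0.21). In this comparison MAP2K2 lost its p in 12 of 19 alternatives, GRB2 in 11 and SOS1 in 7. KSR1 and CIC lost it in 3 each, EGFR in 2 and ARAF in 0. The count of 7 between the overexpression groups ran from 1 to 16 over the alternatives. Of the cascade list, 4.55% passed with EMX1-FL and 9.09% with EMX1-X1, near the 5.8% and 8.11% of all genes tested. Between the overexpression groups 31.8% of the list passed, beside 7.63% of all genes tested.

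**Figure D4:**
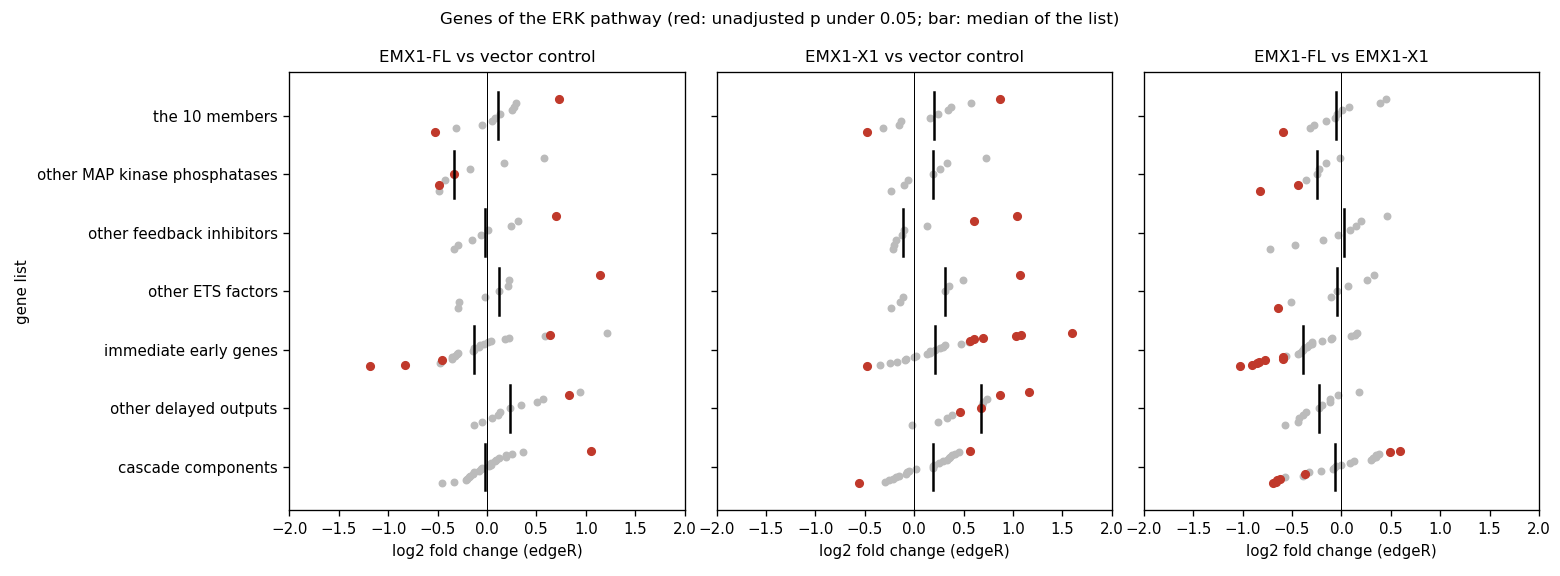
Log2 fold change of each tested gene of the 10 members and the 6 wider lists in the 3 comparisons, with red points for an unadjusted p under 0.05, grey points for the others and a black bar at the median of each list. The medians of the immediate early genes lie at -0.13 with EMX1-FL, 0.21 with EMX1-X1 and -0.39 between the overexpression groups, and those of the other delayed outputs at 0.24, 0.68 and -0.22. Over all genes tested the medians are 0.045, 0.0098 and 0.021 in the same order. EMX1-X1 2 and 3, EMX1-FL 1 and vector control 3 are in cluster B, whose part in these medians was not tested.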

How the data were processed

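Libraries of SNU-398 cells were grouped by their labels into vector control, EMX1-FL and EMX1-X1. The deposited files hold raw counts per gene, made by the authors from read pairs, and log2(TPM + 1) values, a log2 scale that matched a recomputation from the counts and listed gene lengths. The submitters' notes name bcl2fastq, fastp, STAR and featureCounts 2.0.6 with hg38. The file header names featureCounts 2.0.1 with Ensembl release 99, no strand setting, and the methods name RSEM, so the counting step is uncertain.

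Genes passing filterByExpr were tested with edgeR 4.0.16 (R 4.3.3, TMM factors, quasi-likelihood F test) on all 9 libraries without covariates, with Benjamini-Hochberg adjustment over all 18574 genes. DEGs followed the threshold of the study. Intervals and SEs come from the same fit. The precision of each fold change follows from its counts and the 3 libraries per group. The members and lists were chosen with earlier results of these data known. Genes named are the members, EMX1, EGFR, the genes of each list that were DEGs or had the smallest p in a comparison, and the 3 most like DUSP6. Other list genes with an unadjusted p under 0.05 were named after their values were seen, as were the marker genes.

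The main alternatives in tools were DESeq2 1.42.0 and limma 3.58.1, the latter with a pseudocount of 1 or 0.1 on TPM. The others were RLE factors, library size alone, a filter of 1 count in all or of 10 in each library, only the 6 libraries compared, the replicate block, the cluster as a covariate, other thresholds, and each library left out. The cluster was defined from the residuals of these same libraries, so wherever it is a covariate the p-values can be too small. The count of members past an unadjusted p under 0.05 was added as a result after seeing the data. Python 3.11.15 with pandas 2.3.3 and matplotlib 3.10.9 was used for sequences and plots.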

Additional observations from a re-analysis of the deposited data

How the results depend on the processing

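Under all 19 alternatives of each comparison, SPRY2 stayed lower in both overexpression groups, PHLDA1 stayed higher with EMX1-FL and DUSP4 stayed higher with EMX1-X1. The unadjusted p stayed under 0.05 in each of the 19 except for SPRY2 with EMX1-X1, which kept it in 18. No member was a DEG under any alternative that kept the fold change threshold, and with it dropped 2, 2 and 1 were called with EMX1-FL, with EMX1-X1 and between them. Members past an unadjusted p under 0.05 numbered 4 with EMX1-FL and 3 between the groups with the cluster as a covariate, and 2 between the groups without a filter. Leaving out single libraries gave 2 to 3 with EMX1-FL, 1 to 4 with EMX1-X1 and 0 to 4 between the groups, the extremes arising without EMX1-X1 2, EMX1-X1 1, EMX1-FL 1, EMX1-FL 2 or EMX1-X1 3, and ETV4 between the groups had an adjusted p of 0.0452 in edgeR without EMX1-FL 1 (up to 0.991 over its alternatives). The log2 fold change of EMX1 ran from 3.70 to 4.18 with EMX1-FL and from 4.33 to 4.76 with EMX1-X1 when single libraries were left out. Counts of DEGs for EMX1-FL, EMX1-X1 and EMX1-FL against EMX1-X1 were 450, 464 and 263, against 142, 177 and 107 with limma on log2(TPM + 1), 947, 962 and 686 without a filter, 217, 214 and 121 with at least 10 counts in every library, and 13, 1 and 0 at an adjusted p under 0.05. They ran from 419 to 644, from 296 to 902 and from 126 to 1125 with 1 library left out, the last 2 ranges set by leaving out EMX1-X1 1 (902), EMX1-X1 2 (296), EMX1-X1 3 (126) and EMX1-FL 1 (1125). The sign turned for the following values. Between the overexpression groups DUSP6 was -0.0021 and -0.0022 with limma and -0.00011 without a filter, FOSL1 was 0.074 with the cluster as a covariate, and ETV5 with EMX1-FL was 0.042 and 0.042 with limma. With limma on log2(TPM + 1), fold changes with EMX1-FL shifted up by a median of 0.069 over the genes tested. With single libraries left out, the log2 fold change with EMX1-FL ran from -0.16 to 0.25 for DUSP5, -0.11 to 0.33 for SPRED1, -0.22 to 0.50 for ETV4, -0.20 to 0.093 for ETV5 and -0.013 to 0.23 for FOSL1. With EMX1-X1 it ran from -0.24 to 0.0094 for ETV5 and -0.012 to 0.36 for FOSL1. Between the groups it ran from -0.070 to 0.10 for DUSP6, -0.14 to 0.069 for SPRY2, -0.052 to 0.22 for ETV5 and -0.27 to 0.098 for FOSL1. The causes were not tested. Replicate numbers did not pair the libraries: same-numbered libraries had a mean residual correlation of -0.126 against 0.0596 for other numbers, 3 of 9 such pairs exceeded 0.1, and 0 libraries were most like their own number. With the replicate block, 385, 407 and 208 genes were DEGs, members called stayed at 0, and 2, 2 and 1 members passed an unadjusted p under 0.05. Depth limits DUSP5 and FOSL1 most, with 126 counts or fewer in every library.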
